A study of Sthenoteuthis oualaniensis with 24 samples.

Results

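The stomach of the medium form (MF) of Sthenoteuthis oualaniensis (SA, the purpleback flying squid) was compared between sexually mature and immature animals. The comparison holds 6 RNA-sequencing libraries, MDS_1 to MDS_3 from the stomach of mature MF SA and MUS_1 to MUS_3 from the stomach of immature MF SA. They belong to a series of 24 libraries in 8 groups, which also covers the intestine and the dwarf form (DF). No treatment was given, and the groups differed by the developmental stage in the labels. The series design names 3 animals per group, without saying which library came from which animal. A unigene, an assembled transcript taken as 1 gene, entered the comparison where its mean over the 6 libraries was 0.5 FPKM or more (FPKM is a fragment count scaled to transcript length and to the mapped fragments of the library). This left 44581 of the 66837 unigenes of the MF assembly, of 135464 unigenes in the series.

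In squids, the muscular stomach mixes and breaks up prey with enzymes that come from the digestive gland, and absorption takes place mainly in the caecum and the digestive gland. Squids of this family mature and spawn late in a short life, and the gonads grow while feeding goes on. The files pair no unigene with a gene name, so unigenes are described by their IDs, and the label of the tissue could not be checked against marker genes. As a description, the stomach mean reached 1000 FPKM in 64 unigenes, and 7 of them averaged under 100 FPKM in the intestine libraries of the MF. Those 7 held 8.09% ± 0.10 (SD, n = 3) of the summed FPKM in MDS and 7.74% ± 0.07 (SD, n = 3) in MUS, against 0.0152% in mature intestine (MDI) and 0.0446% in immature intestine (MUI). The rule chose these 7 for their levels in the tissues, so the shares are a description. CL7450Contig1, 1 of the 7, met it through MDS alone, with a mean of 1.42 FPKM in MUS.

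Summed FPKM per library was 623381 to 624129 in MDS and 612873 to 615241 in MUS. The number of unigenes at 1 FPKM or more was 31321 to 31502 in MDS and 31145 to 31186 in MUS. The total read depth is unknown from FPKM alone, although the low values gave a relative depth of replicate 1 against replicate 2 of 0.872 in MDS and 0.860 in MUS. Between libraries of a group, the variance was 1.03 to 1.19 times that of counting reads in MDS and 1.07 to 1.13 times in MUS. The coefficient of variation of unigenes at 200 FPKM or more had a median of 1.62% in MDS (382 unigenes) and 1.43% in MUS (380 unigenes). The libraries of a group thus differed by little more than counting, by an amount that moved with the tolerance for whole reads. The p-values measure only the spread between these libraries, which may be technical. In whole tissue, fewer cells of a type and less RNA per cell cannot be told apart.

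Differences with maturity were counted over all unigenes and then by the kind of unigene ID, since the kinds differed in their shares. Of 44581 unigenes, 19295 (43.3%) passed the thresholds of the study for a differentially expressed gene (DEG), P below 0.05 without adjustment and a change of at least 2-fold, in limma. In MDS, 10073 (22.6%) were higher and 9222 (20.7%) were lower. With a Benjamini-Hochberg adjusted p of 0.05 in limma and the same 2-fold limit, 18245 (40.9%) were called, of which 9512 (21.3%) were higher and 8733 (19.6%) were lower. The share at this threshold was 15.5% among unigenes with IDs of the CL kind and 48.4% among those with comp IDs, kinds that are described after these counts. Counting the MUS libraries as 1 sample gave 11553 calls at this threshold. By size alone, 20840 (46.7%) were at least 2-fold apart, 10814 (24.3%) upwards and 10026 (22.5%) downwards. The ranges of the groups did not overlap in 28693 unigenes (64.4%), of which 15393 (34.5%) were higher and 13300 (29.8%) were lower in MDS. The median log2 ratio of group means over all unigenes was 0.09, with 5% of unigenes under −2.33 and 5% above 2.40.

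Direction went with the kind of unigene ID. The MF assembly has 3 kinds, IDs of the form CL...Contig (CL, 12572 unigenes), comp IDs that end in _1 (comp_1, 25876 unigenes) and comp IDs that end in _2 (comp_2, 28389 unigenes). The DF assembly has CL IDs only. The sources used here do not say what the final number stands for or how the comp unigenes of either ending were assembled, so what the counts over all unigenes measure is limited by this. Of the tested unigenes, 10147 were CL, 17373 were comp_1 and 17061 were comp_2. The median log2 ratio of MDS over MUS was 0.09 for CL, 1.07 for comp_1 and −1.04 for comp_2. The ratio was positive in 55.7% of CL, 84.8% of comp_1 and 18.5% of comp_2.

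**Figure D1:**
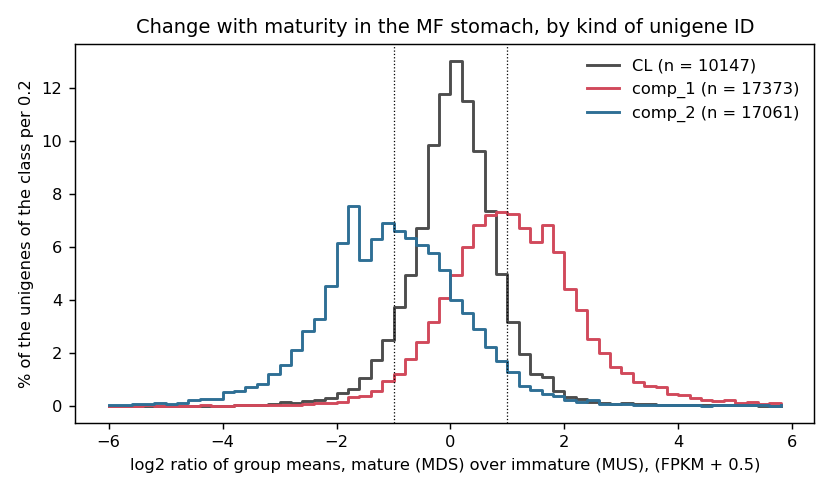
Distribution of the log2 ratio of group means (FPKM + 0.5, mature over immature) for CL, comp_1 and comp_2 unigenes, as the percentage of each kind per 0.2, with dotted lines at a 2-fold change. CL centres near 0.09, comp_1 near 1.07 and comp_2 near −1.04.

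At the DEG thresholds, 8570 comp_1 unigenes (49.3%) were higher in MDS and 358 (2.06%) were lower. Among comp_2 unigenes the counts ran the other way, with 601 (3.52%) higher and 8129 (47.6%) lower. Of CL unigenes, 902 (8.89%) were higher and 735 (7.24%) were lower. Thus 85.1% of all higher calls were comp_1, and 88.1% of all lower calls were comp_2. Within CL, unigenes of cluster 1 (5667 tested, 9.42% higher and 7.71% lower) and those of other clusters (4480 tested, 8.21% and 6.65%) had like shares. Over all levels, the groups did not overlap in 60.9% of CL, 64.8% of comp_1 and 66.0% of comp_2. At each level of mean FPKM the share was lowest in CL. It was 46.5%, 56.0% and 59.4% at 0.5 to 2 FPKM, and 76.4%, 85.1% and 81.8% at 10 to 50 FPKM. The median absolute log2 ratio was 0.44 for CL, 1.13 for comp_1 and 1.15 for comp_2.

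The same shift was visible in every library as a share of expression. The comp_1 unigenes held 33.6% of summed FPKM in each MDS library and 18.3% to 18.4% in the MUS libraries. The comp_2 unigenes held 25.1% to 25.2% in MDS and 41.5% to 41.6% in MUS. The CL unigenes held 41.3% in each MDS library and 40.1% in each MUS library. Groups did not overlap for any of the 3 kinds, and the shares of comp_1 and comp_2 moved far more than that of CL. The intestine libraries had the same order by stage, with means of 36.2% comp_1 and 21.6% comp_2 in MDI and 16.1% and 37.3% in MUI. With log values centred within each kind of ID, a setting chosen after seeing the data, 12706 unigenes passed the DEG thresholds. What part the kind of ID has in the calls was not tested.

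**Figure D2:**
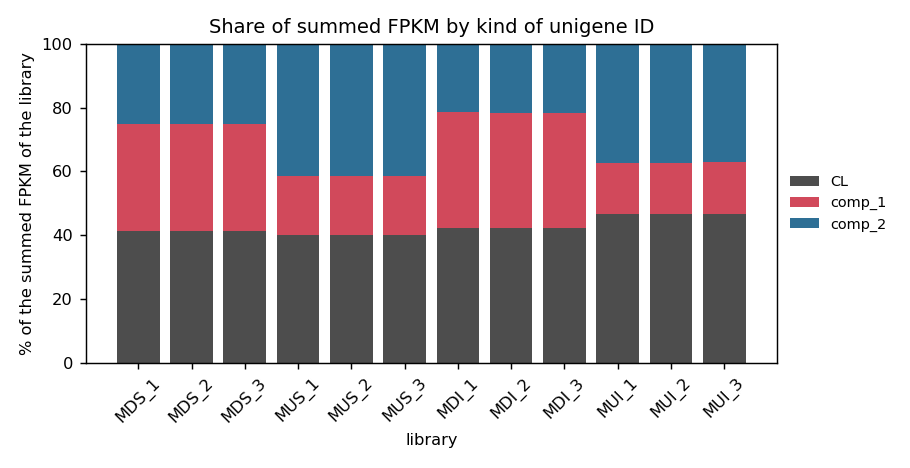
Share of the summed FPKM of each of the 12 MF libraries held by CL, comp_1 and comp_2 unigenes, in percent. The comp_1 share is 33.6% in MDS and 18.3% in MUS on average, and the comp_2 share 25.1% and 41.6%.

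Abundant unigenes showed the pattern as well. Of 1408 unigenes of at least 50 FPKM, 374 were comp_1, of which 205 were higher and 9 were lower in MDS at the adjusted threshold in limma. Of 405 comp_2 unigenes, 26 were higher and 178 were lower. Of 629 CL unigenes, 32 were higher and 41 were lower. Over all 1408, 263 (18.7%) were higher and 228 (16.2%) were lower. Against the direction of their kind, 324 comp_1 unigenes were lower and 542 comp_2 unigenes were higher over all levels, and 11 of the 542 had at least 200 FPKM.

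**Figure D3:**
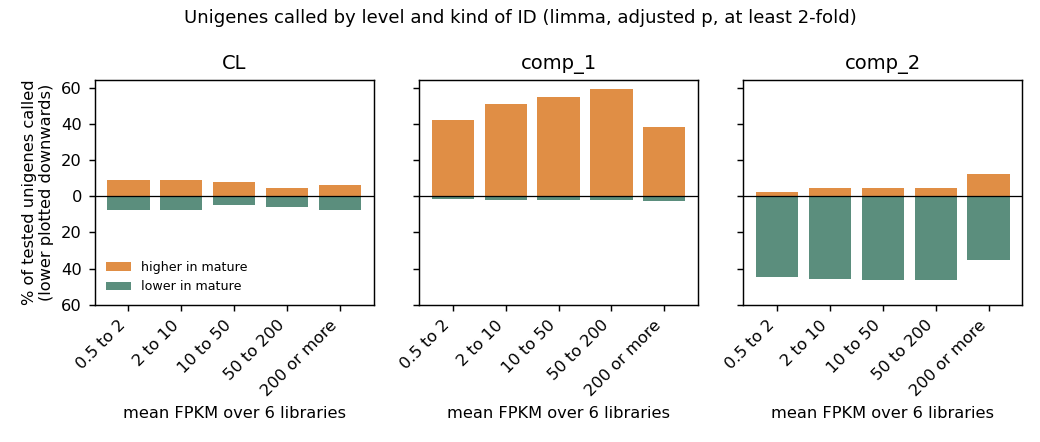
Percentage of tested unigenes called at the adjusted threshold (limma, at least 2-fold) by mean FPKM and kind of ID, with higher in mature plotted upwards and lower downwards. Among unigenes of at least 50 FPKM, 205 of 374 comp_1 are higher and 178 of 405 comp_2 are lower.

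Across unigenes, the correlation of log2(FPKM + 0.5) between an MDS and a MUS library was 0.629 to 0.639 (Pearson's r, n = 44581 unigenes that are not independent). It was 0.894 to 0.905 among CL, 0.661 to 0.678 among comp_1 and 0.674 to 0.683 among comp_2. Within a group it was 0.926 to 0.933 for MDS and 0.919 to 0.926 for MUS over all unigenes, and 0.969 to 0.979 and 0.974 to 0.978 among CL. Over all unigenes, the mature stomach was thus closer to the mature intestine (0.818 to 0.825) than to the immature stomach. Among CL unigenes these ranges met, with 0.884 to 0.896 between mature stomach and mature intestine.

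Some unigenes were listed at 0 in 1 stage. In all 3 MUS libraries, 326 unigenes (0.73% of 44581) were listed at 0 that had at least 1 FPKM in each MDS library. Of these, 280 were comp_1 (1.61% of comp_1). The reverse held for 282 unigenes (0.63%), of which 263 were comp_2 (1.54% of comp_2). With a limit of 0.01 FPKM in place of 0, there were 1111 such unigenes (2.49%) in the first direction, 1056 of them comp_1. In the second there were 1231 (2.76%), 1210 of them comp_2. Unigenes seen at 1 stage were therefore also mostly of 1 kind of ID. They entered the comparison through that stage alone. Low values in these files run far below the estimated value of 1 read (a median of 0.292 FPKM in MDS and 0.302 FPKM in MUS), with 7149 to 7306 values above 0 and under 0.001 FPKM per MDS library and 6155 to 6209 per MUS library, of 66837 listed.

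Among the most abundant unigenes, the stages shared 7 of their top 10, 13 of their top 20 and 74 of their top 100. The most abundant unigene of MDS was comp33489_c0_seq1_2, with 17458, 17746 and 17720 FPKM in MDS and 5962, 6091 and 6027 FPKM in MUS. Every MDS library was above every MUS library, and its share of summed FPKM was 2.83% in MDS and 0.981% in MUS. Its log2 fold change was 1.55 ± 0.01 (SE, adjusted p = 8.86e-09 in limma), against the direction of most comp_2 unigenes. It ranked first in MDS and 8 in MUS. In the intestine it had a mean of 30.5 FPKM in MDI and 65.2 FPKM in MUI, and there it was the immature libraries that were higher.

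Among unigenes above 0 in all 6 libraries, the largest rise was that of CL7450Contig1, of the kind whose median log2 ratio was 0.09. It had 2998, 3034 and 2964 FPKM in MDS and 2.03, 0.479 and 1.76 FPKM in MUS. It was thus among the most abundant unigenes in each mature library (rank 17) and at 2.03 FPKM or less in each immature one (rank 26107). The log2 fold change was 10.72 ± 0.35 (SE, adjusted p = 3.49e-06 in limma). In the intestine its mean was 2.64 FPKM in MDI (2.14 to 3.33) and 1.17 FPKM in MUI (0.403 to 1.89).

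Among unigenes above 0 in all 6 libraries, the largest fall was that of comp32608_c0_seq1_2, with 332, 357 and 355 FPKM in MUS. In MDS it was listed at 0.000187, 1.04e-06 and 3.45e-05 FPKM, so of the 2 stages only the immature one held it at a measurable level. Its log2 fold change of −9.45 ± 0.07 (SE, adjusted p = 1.78e-08 in limma) is set by the pseudocount. Its highest value in the 6 intestine libraries was 0.177 FPKM, in MUI_3. Another comp_2 unigene had a mean of 427 FPKM in MUS and was listed at 0 in all 3 MDS libraries, so no fold is given for it.

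By the mean over the 6 libraries, the most abundant unigene that fell was comp61394_c0_seq2_2. It had 4015, 4222 and 4282 FPKM in MDS and 10309, 10337 and 10467 FPKM in MUS, and the groups did not overlap. Its log2 fold change was −1.31 ± 0.02 (SE, adjusted p = 3.09e-07 in limma). Under quantile normalization the fold change was −0.95, and after centring each kind of ID it was −0.23, both short of the threshold. It ranked 12 in MDS and 4 in MUS, and had a mean of 13.3 FPKM in MDI and 42.8 FPKM in MUI.

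The most abundant unigene that was not called was CL1Contig2539, at 8337, 8346 and 8438 FPKM in MDS and 10737, 10724 and 10764 FPKM in MUS. It ranked 3 in both stages. MUS was higher in every library, by a log2 fold change of −0.36 for MDS (adjusted p = 1.29e-07 in limma), which is under the 2-fold threshold. Quantile normalization, which gives equal ranks equal values, removed this difference. In the values as deposited, the difference was larger than the spread between libraries and small in size.

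**Figure D4:**
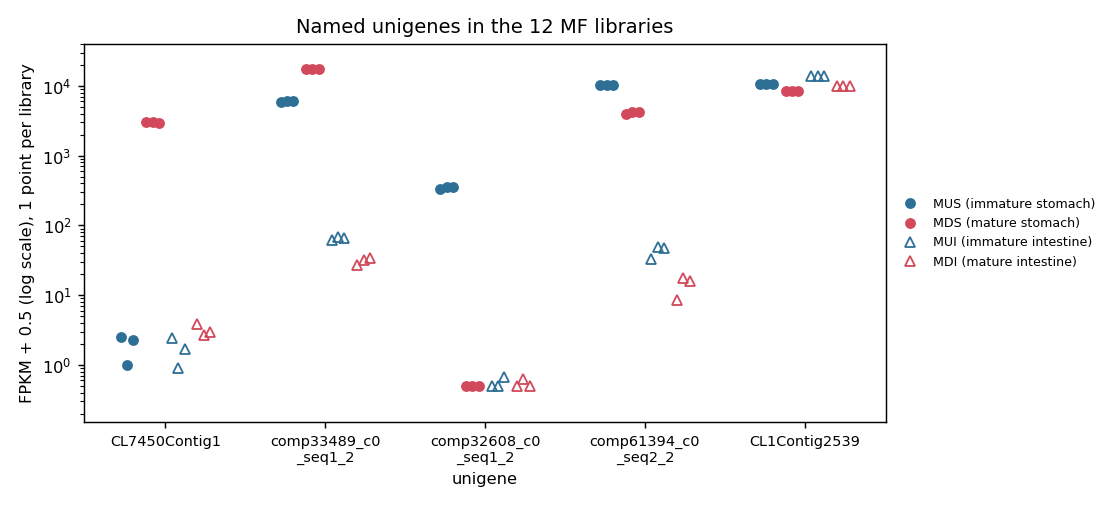
FPKM + 0.5 on a log axis of 5 named unigenes in the 12 MF libraries, 1 point per library, filled circles for stomach and open triangles for intestine. CL7450Contig1 has 2964 to 3034 FPKM in MDS and 0.479 to 2.03 FPKM in MUS, and comp32608_c0_seq1_2 at 332 to 357 in MUS and near 0 in MDS.

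The 7 unigenes abundant in stomach and low in intestine, a set chosen after the values were seen, did not move together. At the adjusted threshold, 2 were higher in MDS and 2 were lower, while 3 were less than 2-fold apart. Over all unigenes, 21.3% were higher and 19.6% were lower. CL7450Contig1, 1 of the 2 higher, met the rule through its MDS level alone. Besides the 3 of the 7 named above, the most abundant unigene of MUS, a comp_2 unigene, fell with maturity. It went from 11981 ± 208 FPKM (SD, n = 3) to 2429 ± 43 FPKM (SD, n = 3), and from rank 1 to rank 22. A comp_1 unigene was 9140 FPKM in MDS and 6234 FPKM in MUS, a comp_2 unigene 7044 and 8732 FPKM, and a CL unigene 7029 and 4203 FPKM. The summed share of the 7 was 8.09% in MDS and 7.74% in MUS, and its make-up differed. The rule chose the 7 for their stomach level, so whether this share is held between stages was not tested.

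The CL unigenes were described apart, as their median was near 0 in both tissues. Of 626 CL unigenes that averaged 50 FPKM or more and had at least 1 FPKM in each library, 31 rose and 40 fell at the adjusted threshold. Over all CL unigenes, 8.57% were higher and 6.97% were lower, and over all unigenes 21.3% and 19.6%. The largest rise among the 626 was 39.0-fold, from 8.25 ± 0.87 FPKM in MUS to 322 ± 2.1 FPKM in MDS (SD, n = 3). The most abundant of the 5 largest rises went from 646 ± 30 FPKM to 4552 ± 50 FPKM (SD, n = 3), or 7.05-fold. The other 3 of the 5 rises were 7.42-, 5.80- and 5.29-fold. The 5 largest falls were smaller, between 3.59- and 3.87-fold, and the first of them went from 208 ± 0.67 FPKM in MUS to 53.7 ± 3.6 FPKM in MDS (SD, n = 3).

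The share of stomach unigenes called fell with the level in the intestine over all unigenes, in CL and in comp_2, but not in comp_1. Of 6232 unigenes that averaged under 0.5 FPKM in the 6 MF intestine libraries, 54.5% were called in the stomach, compared with 39.7% of 29778 unigenes at 0.5 to 10 FPKM and 35.3% of 8571 at 10 FPKM or more. The 3 kinds of ID ran differently. Among CL the shares were 25.5%, 16.8% and 10.9%, while among comp_1 they were 51.6%, 46.4% and 55.1%. Among comp_2 they were 62.8%, 45.8% and 43.2%. Unigenes under 0.5 FPKM in the intestine were also less abundant in the stomach, with a median of 0.830 FPKM against 15.1 FPKM in the highest class. Entry went by the mean over both stages, so a unigene near 0.5 FPKM could enter through the stage where it was high. The part of abundance and of this entry rule in these shares was not tested.

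Of the tested unigenes, 38349 also averaged 0.5 FPKM or more in the intestine, which shares no library with the stomach. The study took both tissues from each animal, so the tissues are not independent samples. Of 9148 unigenes called in both tissues, 97.1% went the same way. Among CL the share was 85.3% of 380, among comp_1 98.1% of 4658 and among comp_2 97.1% of 4110. Most calls within a comp kind had 1 direction in each tissue. Of all comp_1 tested in both, 50.7% were higher and 1.52% were lower in mature intestine, and of comp_2, 2.04% and 48.6%. The part of this in the agreement was not tested. Over all CL unigenes tested in both tissues, 4.99% were higher and 5.58% were lower in mature intestine. Of 801 CL unigenes higher in mature stomach, 181 were also higher and 43 were lower in mature intestine. Of 624 CL unigenes lower in mature stomach, 143 were also lower and 13 were higher. The correlation of the log2 ratios was 0.67 over all, and 0.37, 0.42 and 0.50 within CL, comp_1 and comp_2 (Pearson's r across unigenes, which are not independent). The 2 comp kinds lay in opposite corners in both tissues, with intestine medians of 1.12 and −1.06, so the pooled value is larger than any within a kind.

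**Figure D5:**
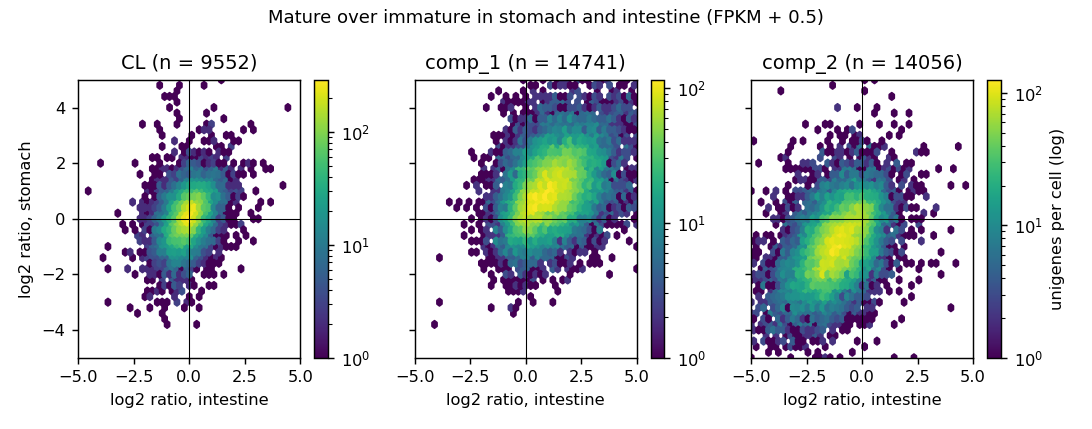
Log2 ratio of mature over immature in the stomach (vertical) against the intestine (horizontal), 1 panel per kind of ID, coloured by the number of unigenes per cell on a log scale. CL unigenes centre near 0 in both tissues, comp_1 lie mostly above 0 and comp_2 mostly below 0 in both, and axes are limited to 5 in either direction.

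The change with maturity was also compared between stomach and intestine as an interaction in 1 limma fit over the 12 MF libraries. With an adjusted p of 0.05 and log2 changes that differed by 1 or more, 12750 of 50372 unigenes (25.3%) were called. Of these, 6584 had a larger and 6166 a smaller log2 change in the stomach. Larger and smaller go by the signed change, so a larger change can be a weaker fall. The share called was 15.3% among CL, 28.5% among comp_1 and 27.7% among comp_2. By direction, comp_1 had 2000 larger and 3498 smaller, comp_2 had 3624 larger and 1950 smaller, and CL had 960 larger and 718 smaller log2 changes in the stomach. The overall excess of larger changes turned to 6286 larger and 6533 smaller under quantile normalization, and to 5924 and 6558 with log values centred within each kind of ID. The log2 change of CL7450Contig1 was 9.72 higher in the stomach than in the intestine. That of comp33489_c0_seq1_2 was 2.64 higher, with opposite signs, 1.55 in the stomach and −1.09 in the intestine. For comp61394_c0_seq2_2 the difference was 0.37 ± 0.34 (SE, adjusted p = 0.43 in limma) and was not called.

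Counted by assembly component, where unigenes with the same comp number are summed whatever their ending, 15926 of 40805 components (39.0%) passed the DEG thresholds. With the ending kept, no component held more than 1 unigene. Of the component numbers, 9366 occurred under both endings. The levels of such pairs had a correlation of 0.05 (Pearson's r across components), so equal numbers under the 2 endings did not go with equal levels. The sources do not say whether such pairs are related, so the count by component cannot show whether reads were split between unigenes.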

How the data were processed

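Stomach RNA of 3 mature (MDS) and 3 immature (MUS) MF libraries was analysed, with the 6 intestine libraries of the MF beside it. The authors trimmed the reads, assembled MF unigenes with Trinity from both tissues and stages, and deposited an FPKM value for each unigene in each library. The aligner and FPKM program were not given in the sources used here, nor was a version. The study names a count method for its DEGs, which needs counts. Here limma 3.58.1 (R 4.3.3) was run on log2(FPKM + 0.5), 2-sided, with an intensity trend and no covariate. Fold changes on this scale understate those of low unigenes. Tables were handled in Python 3.11.15. The limma step was tested on simulated data. With 3 against 3 libraries an exact permutation test cannot go below p = 0.1, so none is given.

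Libraries of a group were compared with counting noise through whole reads in low values (0.02 to 2 FPKM, within 2.5%), for unigenes of 10 to 1000 reads. Values do not all fall on whole reads, so this is approximate and no reads were recovered. Same-numbered libraries come from different animals, and their deviations had correlations of 0.16, 0.02 and 0.05 (6866 unigenes of at least 10 FPKM), so numbers were not used as pairs.

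Named unigenes were the largest rise and fall by size among unigenes called at the adjusted threshold, above 0 in all 6 libraries, averaging 10 FPKM or more and with groups that do not overlap (2617 unigenes). The most abundant that rose, that fell and that was not called, by the mean over the 6 libraries, were named beside them. Members and lists were chosen with earlier results of these data known. No gene list, marker or sequence was used, because the IDs come without gene names.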

Additional observations from a re-analysis of the deposited data

Results flagged for a closer look

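Between stomach and intestine of the MF, the change with maturity differed in 12750 of 50372 unigenes by the interaction in limma (adjusted p of 0.05, log2 changes 1 or more apart). Among the named unigenes, the log2 change of CL7450Contig1 was 9.72 ± 0.55 (SE) higher in the stomach (adjusted p = 3.71e-07 in limma). That of comp33489_c0_seq1_2 was 2.64 ± 0.10 (SE) higher (adjusted p = 2.27e-08 in limma), with opposite signs in the tissues, 1.55 in the stomach and −1.09 in the intestine. For comp32608_c0_seq1_2 the difference was −9.40 ± 0.23 (SE, adjusted p = 5.67e-10 in limma), a value set by the pseudocount, as the unigene was near 0 in MDS and in both intestine groups.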

How the results depend on the processing

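With a minimum mean of 10 FPKM, fewer unigenes were tested, and 2654 passed the DEG thresholds (1487 higher, 1167 lower), 2649 the adjusted threshold (1483 and 1166) and 2644 the size threshold (1483 and 1161), with 2591 components (1457 and 1134) and 2204 interactions (1270 and 934). With the MUS libraries as 1 sample, 11553 were called at the adjusted threshold (6072 and 5481), where the lone sample is assumed to vary like MDS. Centring log values per kind of ID, chosen after seeing the data, gave 12706 DEGs (6483 higher, 6223 lower) and 11538 at the adjusted threshold (5911 and 5627), and 4015 of 10073 higher and 3693 of 9222 lower calls were kept. The excess of higher calls turned with scaling, to 9464 higher and 9791 lower under quantile normalization and 9398 and 9575 under median of ratios scaling. Under both, comp61394_c0_seq2_2 stayed lower, by −0.95 and −1.39, and it was −0.23 after centring per kind. Leaving out 1 library at a time gave 18374 to 18532 DEGs, with 9075 to 10141 higher and 8298 to 9331 lower. The excess also turned without any 1 MDS library, to 9075 higher and 9300 lower without MDS_1, 9201 and 9331 without MDS_2, and 9125 and 9301 without MDS_3. Over 15 alternatives of pseudocount, filter, scaling, trend, block and left-out libraries, the median log2 fold change of comp_1 was 0.82 to 1.52 and that of comp_2 −1.44 to −0.72, while that of CL was −0.00 to 0.11 and turned under quantile normalization only.

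With the replicate number as a block, 19411 DEGs were called (10109 higher, 9302 lower), 17927 at the adjusted threshold, 16013 components and 12467 interactions. The block ended no call of a named unigene. At a tolerance of 1.5% for whole reads, the median variance ratio between libraries was 1.28, against 1.12 at 2.5%. The unknown depth limits what can be said of unigenes listed at 0.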
